A study of Bos taurus with 35 samples.

Results

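Intramuscular fat (I), the marbling fat that lies between the muscle fibre bundles, was compared with subcutaneous fat (S), the fat layer under the skin, within the same animals. RNA-seq libraries of both depots were taken from 8 Hanwoo cattle, a Korean beef breed. The 16 libraries were chosen by their tissue label and animal number out of the 34 libraries read here. The animals were all 30 months old by the labels. The animals 28049, 28057 and 28046 were labelled female, 28260, 28271 and 28261 castrated male, and 28300 and 27258 male. No treatment, transgene or diet group separated the libraries. A ninth animal, 28298, entered no paired comparison because no intramuscular table was used for it. The other libraries came from omental fat and muscle and served only as context.

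White fat stores energy as triacylglycerol in the lipid droplet of the adipocyte, and it also holds macrophages, blood vessels and fibroblast-like precursor cells. The depots of one animal arise from different places in the embryo, and adult depots are known to keep different sets of developmental transcription factors. Intramuscular fat fills late in cattle and is surrounded by muscle fibres, so that it is hard to dissect free of them. In bulk tissue, fewer cells of a type and less RNA per cell cannot be told apart.

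The tables gave gene identifiers without symbols. Symbols were available for 31 genes that the study had followed by qRT-PCR, and the results below are described through them. Of these, 29 had been selected by the study on these same samples for their depot differences, and GAPDH and ACTB were its reference genes. The qRT-PCR primers of 4 genes discussed most are shown, 5′ to 3′, because the primer list is what ties each symbol to its gene identifier; the levels given here are RNA-seq counts over the whole gene and do not come from these primers. The 4 are the gene with the widest fitted gap (TNMD), an enzyme of fat synthesis (FASN), a macrophage receptor (CD163) and a patterning factor (EN1). No letters are capitalised because no part was singled out.

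TNMD forward: ctcttattgtcctgttttggggg
TNMD reverse: tcttcttcttctctccattgctgt
FASN forward: gtgcgtcctggtgtctaacctc
FASN reverse: ctcctcgggcttgtcttgttc
CD163 forward: agtcccatctttcactctgccc
CD163 reverse: ttgacctccactcttccttcaca
EN1 forward: actgactcgcagcaacccct
EN1 reverse: gcttgtcctccttctcgttcttc

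Read counts on genes ranged from 4363871 to 7184022 in the 16 libraries. Levels are given as CPM, the reads of a gene relative to the library total after TMM scaling over these libraries. Differences are log2 fold changes of I over S from edgeR's quasi-likelihood test with the animal in the model, and a gene was called a differentially expressed gene (DEG) below a false discovery rate (FDR) of 0.01. Each animal gave 1 library per depot, so the p-values reflect the spread between animals. Of 24596 genes in each table, 12991 passed the count filter and were tested. One intramuscular library, that of animal 28271, stood far from the other 7, and results are therefore also given without that animal.

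The depots differed at many of the tested genes, so that a called gene is by itself not unusual here. There were 3573 DEGs, 27.5% of the genes tested. Of these, 1946 were higher in I (15% of the genes tested) and 1627 were higher in S (12.5%). The changes toward I were the larger ones. The median absolute log2 fold change was 1.35 for DEGs higher in I and 0.95 for those higher in S, compared with 0.43 over all genes tested. A change of at least 2-fold was found at 1319 genes higher in I and 750 higher in S. At 4-fold the counts were 515 and 116, and at 16-fold they were 132 and 3. All 38 DEGs that differed by 64-fold or more were higher in I.

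**Figure D1:**
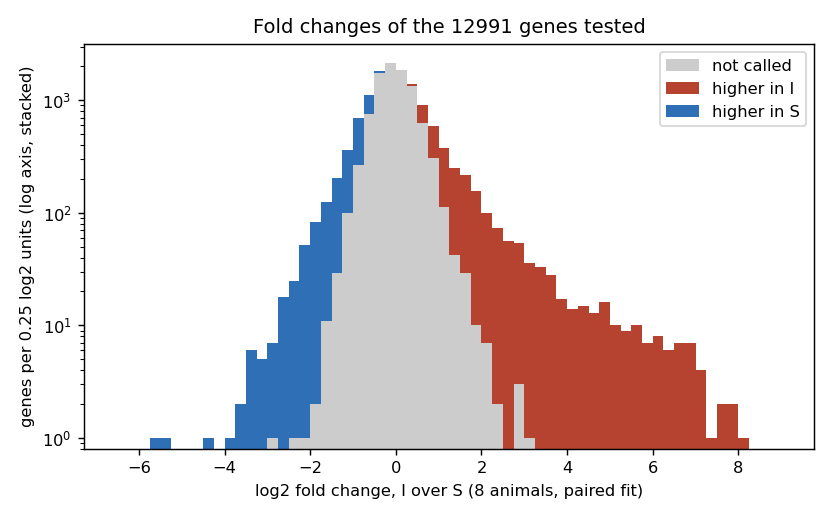
Distribution of the log2 fold change of I over S for the 12991 genes tested, in bins of 0.25 with a log axis of gene number; grey bars are genes not called, red bars DEGs higher in I and blue bars DEGs higher in S. The right tail is longer: 132 DEGs were at least 16-fold higher in I and 3 at least 16-fold higher in S.

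The split between the depots depended on the scaling. Without scaling factors, 36.2% of the DEGs were higher in I instead of 54.5%, with 1503 higher in I and 2646 higher in S, and the median log2 fold change over all genes tested moved from -0.03 to -0.21. No DEG changed sign. The number higher in S also moved with single animals. It fell when any animal but 28271 was left out, from 1033 without 28261 and 1080 without 28260 up to 1318 without 28300. Without 28271 it rose to 2298.

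Consistency between animals was high among the DEGs. The calls came from the same animals, however, so agreement and non-overlap among the DEGs are partly fixed by the calling. Among the DEGs, 2953 (82.6%) changed in the same direction in 8 of 8 animals, 614 in 7 and 6 in 6. Over all genes tested, 27.3% went the same way in 8 animals. The libraries of the depots did not overlap at 1490 DEGs (41.7%), that is, every I library lay on one side of every S library. This held for 11.7% of all genes tested. Non-overlap was seen at 940 DEGs higher in I (48.3%) and 550 higher in S (33.8%).

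To examine direction in an animal that the calls had not used, each animal was left out of the fit in turn. In 7 of the 8 animals, between 94.8% (28046) and 99.2% (28261) of the DEGs called from the others went the same way. In 28271 the share was 68.7% of 4743 genes. For genes not called in the other 7 animals the share was 65.1% to 80.5% in those 7 animals and 49.4% in 28271. At the genes called higher in I from the other 7 animals, the median log2 difference was 1.67 in 28261, against 1.48 in the others. In 28271 it was 0.70, against 1.20 in the others. Low values were also found in 28300, with medians of 1.14 and -0.65 for the genes higher in I and in S, against 1.48 and -1.03 in the others.

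**Figure D2:**
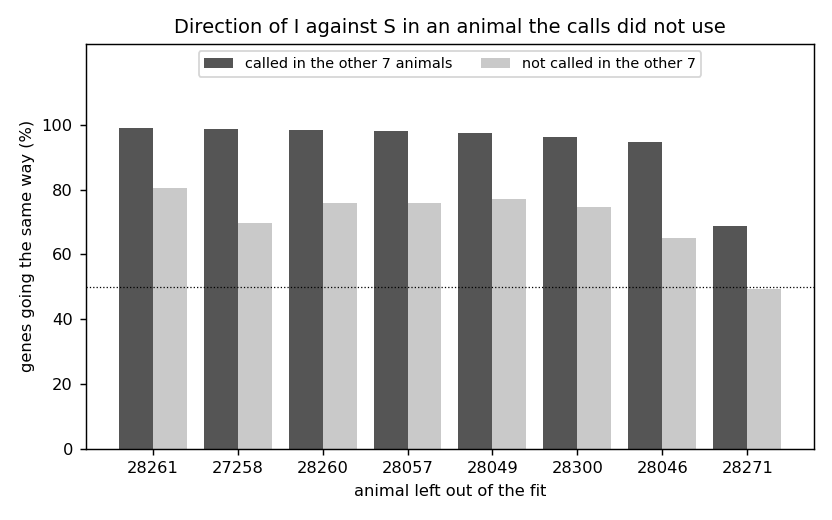
Percentage of genes that went the same way in the animal left out (horizontal axis) as in the fit of the other 7; dark bars are genes called in the other 7, light bars genes not called, and the dotted line marks 50%. The dark bars lie between 94.8% and 99.2% except for 28271, at 68.7%.

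The genes without a call were not all shown to be alike. Over all genes tested, DEGs included, the 95% interval of the fold change lay within 1.5-fold in either direction for 2948 (22.7%). It lay within 2-fold for 7418 (57.1%). A further 2616 genes were neither called nor bounded within 2-fold. Over 4 classes of mean CPM, the share of genes called ranged from 23.8% in the least abundant class to 46.3% in the most abundant one.

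Of the 31 genes with symbols, 21 were tested and 14 were DEGs (66.7%, against 27.5% of all genes tested). Most had been selected for a large difference in these samples, so the share is not independent evidence. These included 7 genes higher in I, namely TNMD, EEF1A2, CCL2, TPM2, ADAM23, ERBB3 and PPP1R3C. The remaining 7, CYP17A1, LHX8, FASN, EN1, DGAT2, CD163 and ITGAM, were higher in S. All 14 went the same way in 8 of 8 animals. Among the 10 genes that the study followed for omental fat, 5 were tested and none was a DEG by edgeR, the smallest FDR being 0.0348 (MFSD2A). The 95% interval left out 0 for 3 of them (MFSD2A, FGF7 and ZIC1), and DESeq2 called none.

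**Figure D3:**
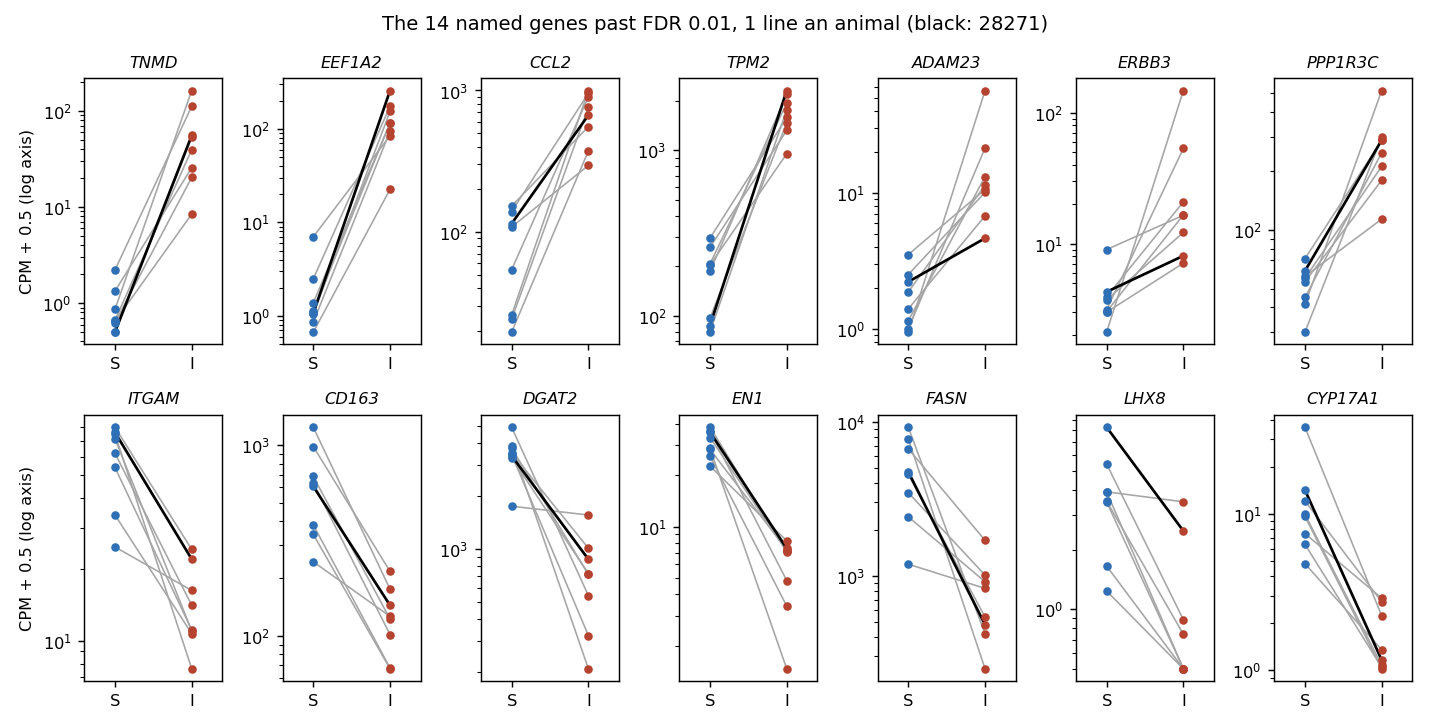
CPM + 0.5 (log axis) in S (blue) and I (red) for the 14 DEGs with symbols, with a line joining the depots of each animal and a black line for 28271. Every line rises in the upper row and falls in the lower row, and the depots overlap only for ERBB3, FASN and LHX8.

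The 2 enzymes of fat synthesis were lower in I. FASN, the fatty acid synthase that makes palmitate from acetyl and malonyl units, ranged from 1190 to 9250 CPM in S, with a median of 4650. In I it ranged from 248 to 1700 CPM, with a median of 683. Every animal had the lower level in I, but the depots overlapped because the S library of 28300 (1190 CPM) lay below the I library of 28049 (1700 CPM). The log2 fold change was -2.67 ± 0.51 (SE, n = 8 animals, FDR 0.00188). The gap was narrowest in 28300, at 0.693 of the S level on the CPM + 0.5 scale.

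DGAT2, which attaches the last fatty acid of triacylglycerol, did not overlap between the depots. It ranged from 1750 to 4910 CPM in S (median 3480) and from 209 to 1560 CPM in I (median 722). The lowest S library and the highest I library both belonged to 28300, whose depots differed least. The log2 fold change was -2.43 ± 0.40 (SE, n = 8, FDR 0.000792). Without 28271 the values were -2.52 for DGAT2 and -2.58 for FASN, both still DEGs. Against a null of a 2-fold change, FASN (FDR 0.0212) and DGAT2 (FDR 0.0109) no longer passed.

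CD163 and ITGAM, genes of macrophages and other myeloid cells, were lower in I. CD163, the haemoglobin scavenger receptor of macrophages, ranged from 244 to 1240 CPM in S (median 620) and from 66.7 to 217 CPM in I (median 124). The depots did not overlap, and the log2 fold change was -2.26 ± 0.20 (SE, n = 8, FDR 1.65e-05). Animal 28049 had the smallest difference, with 126 CPM in I and 244 CPM in S. ITGAM, the integrin chain CD11b of myeloid cells, ranged from 24.4 to 79.4 CPM in S (median 66.2) and from 7.1 to 23.8 CPM in I (median 12.1). Its depots were also separate, by a narrow margin, with a log2 fold change of -2.06 ± 0.26 (SE, n = 8, FDR 0.000154).

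Among other genes tied to these cells, CCR2 lay near the threshold and MMP9 was not called. CCR2, the receptor for the chemokine CCL2, had 7 to 24 counts in S and 0 to 10 in I and was below the count filter. A fit of all genes with any count gave it a log2 fold change of -2.44 ± 0.65 (SE, n = 8, FDR 0.0118). In such fits it was called without 27258 (FDR 0.00202), without 28046 (FDR 0.00857), without the animal in the model (FDR 0.00393) and without scaling factors (FDR 0.00829). It was lower in I in 7 of 8 animals. MMP9, a secreted gelatinase of neutrophils and macrophages, had a log2 fold change of -0.80 ± 0.76 (SE, n = 8, FDR 0.421), with a 95% interval from -2.48 to 0.88, so that a change of more than 2-fold toward S was not excluded by the interval, and one toward I was. Wider macrophage marker lists could not be applied without symbols.

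CCL2 itself, the chemokine that draws monocytes, was higher in I. It ranged from 295 to 999 CPM in I (median 716) and from 19.1 to 152 CPM in S (median 80.8). The depots did not overlap, but the ratio between them varied widely, from 2.73 to 38.6 among animals on the CPM + 0.5 scale. The log2 fold change was 3.40 ± 0.48 (SE, n = 8, FDR 0.000339).

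TNMD had the widest fitted difference of the tested genes with symbols. It encodes tenomodulin, a membrane glycoprotein best known from tendon that is also made in adipose tissue. In I it ranged from 7.94 (28046) to 162 CPM (28261), with a median of 45.8. In S the highest level was 1.71 CPM (28300), the median was 0.156, and no read was counted in 28260 and 28271. The depots were far apart in every animal, with a log2 fold change of 7.01 ± 0.47 (SE, n = 8, FDR 3.98e-06). Mean levels on the scale of all 34 libraries were 2.09 CPM in muscle, 0.27 in omental fat and 52.4 in I, so that TNMD was far lower in muscle than in I.

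EEF1A2 and TPM2 were higher in I and are abundant in muscle. EEF1A2, the elongation factor form used by muscle and neurons, ranged from 22.1 (28300) to 257 CPM (28271) in I, with a median of 115, and from 0.171 to 6.52 CPM in S, with a median of 0.605. Its log2 fold change was 6.74 ± 0.52 (SE, n = 8, FDR 8.24e-06). TPM2, the beta-tropomyosin of contractile filaments, ranged from 954 (28300) to 2300 CPM (28271) in I (median 1670) and from 79.2 to 294 CPM in S (median 193).

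For TPM2 the log2 fold change was 3.36 ± 0.33 (SE, n = 8, FDR 3.32e-05). Both genes were lowest in I in 28300 and highest in 28271, the animals at the ends of the muscle gene sum given below, in which both genes are themselves counted. On the scale of all 34 libraries, the muscle means were 4385 CPM for EEF1A2 and 33870 CPM for TPM2. DUSP27, a member of the dual specificity phosphatase family, had 6 to 153 counts in I, at most 1 count in any S library and a mean of 639.9 CPM in muscle. It was below the count filter and was called when fitted without it (FDR 6.79e-07).

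PPP1R3C, which targets protein phosphatase 1 to glycogen, was higher in I and was about as abundant in muscle as in I. It ranged from 113 to 517 CPM in I (median 268) and from 29.4 to 70.6 CPM in S (median 54.8), without overlap. The log2 fold change was 2.29 ± 0.28 (SE, n = 8, FDR 0.000124). The means over all 34 libraries were 237 CPM in I and 245 CPM in muscle.

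ADAM23 and ERBB3 were higher in I and varied widely between animals. ADAM23, a membrane protein of the ADAM family that lacks protease activity, ranged from 4.13 (28271) to 56.3 CPM (28046) in I, with a median of 10.5, and from 0.441 to 3.01 CPM in S, with a median of 1.13. Its log2 fold change was 3.30 ± 0.56 (SE, n = 8, FDR 0.001). ERBB3, a receptor for neuregulins, ranged from 6.62 to 147 CPM in I (median 16.1) and from 1.62 to 8.53 CPM in S (median 2.95), with overlap.

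Animal 28046 had the highest I level of both genes and 28271 was among the lowest for each. For ERBB3 the log2 fold change was 2.56 ± 0.58 (SE, n = 8, FDR 0.00521). This call was lost at FDR 0.0141 without 27258, 0.0149 without 28057, 0.0101 without 28260 and 0.0158 without 28261, and against a null of a 2-fold change (FDR 0.0552). Both genes had lower means in muscle (3.42 and 8.05 CPM) than in I (14.4 and 30.6 CPM), on the scale of all 34 libraries. The I means rested partly on 28046, at 56.3 and 147 CPM. The I medians were 10.5 and 16.1 CPM, on the scale of the ranges above.

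IGF2BP2 and STRA6 were below the count filter and were fitted without it. IGF2BP2, an RNA-binding protein of growth factor transcripts, had 5 to 83 counts in I and 0 to 5 in S, with a log2 fold change of 4.71 ± 0.51 (SE, n = 8, FDR 2.55e-05). STRA6, a cell-surface receptor for retinol-binding protein, had 1 to 30 counts in I and 0 to 3 in S. Its log2 fold change was 2.70 ± 0.62 (SE, n = 8, FDR 0.00527), and it was higher in I in 7 of 8 animals. Its call was lost in 6 of the 8 fits that left out an animal, with FDR 0.0124 without 28300, 0.0125 without 28260, 0.0128 without 28261, 0.0179 without 28046, 0.021 without 27258 and 0.0268 without 28057.

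EN1 and LHX8, transcription factors of embryonic patterning, were higher in S. EN1, the homeobox factor of the midbrain-hindbrain border and of ventral limb skin, ranged from 22.2 to 37.9 CPM in S (median 30.6) and from 0.96 (28261) to 7.75 CPM in I (median 6.63). The depots did not overlap, and the log2 fold change was -2.61 ± 0.29 (SE, n = 8, FDR 6.9e-05). LHX8, a LIM homeobox factor, ranged from 0.735 to 7.78 CPM in S (median 3.21), whereas no read was counted in 4 of the 8 I libraries and the highest I level was 2.98 CPM (28300).

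LHX8 had a log2 fold change of -2.69 ± 0.60 (SE, n = 8, FDR 0.00472), and this call depended on single animals. It was lost without the animal in the model (FDR 0.0172) and without 27258 (FDR 0.0102), 28057 (0.0107), 28260 (0.0116), 28049 (0.0127) or 28261 (0.0163), as well as against a null of a 2-fold change (FDR 0.0478), and LHX8 did not pass the count filter without 28271. TBX5, the T-box factor of forelimb and heart, had 3 to 22 counts in each S library and 0 or 1 in each I library. It was below the count filter and was called without it (FDR 0.000144). CYP17A1, the steroid 17-hydroxylase, was also higher in S, at 4.31 to 35.3 CPM (median 9.29) against 0.523 to 2.39 CPM in I (median 0.757), without overlap and with a log2 fold change of -3.22 ± 0.35 (SE, n = 8, FDR 6.84e-05).

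Other patterning factors were not called. TBX15, another T-box factor, ranged from 35.8 to 59.2 CPM in S (median 42.4) and from 12.6 to 57.4 CPM in I (median 46.6). The lowest I value was that of 28271, and the other 7 I libraries lay between 35 and 57.4 CPM, inside or close to the S range. The log2 fold change was -0.10 ± 0.25 (SE, n = 8, FDR 0.764), and 0.11 ± 0.15 without 28271 (FDR 0.56). ZIC1, a zinc finger factor, had a log2 fold change of 1.49 ± 0.67 (SE, n = 8, FDR 0.097) with a 95% interval from 0.01 to 2.98. TCF21, a basic helix-loop-helix factor of mesothelial and mesenchymal cells, had at most 3 counts in any I library and at most 1 in any S library, too few for a fold. It was higher in I in 7 animals and higher in S in none, and it reached FDR 0.014 when fitted without the filter.

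The reference genes leaned toward I without a call. GAPDH had a log2 fold change of 0.47 ± 0.17 (SE, n = 8, FDR 0.0479) and ACTB of 0.60 ± 0.21 (SE, n = 8, FDR 0.0411), each higher in I in 7 of 8 animals. Without scaling factors the values were 0.29 and 0.41. On the scale of all 34 libraries, the GAPDH means were 7680 CPM in muscle and 563 CPM in I. For ACTB the means were 1303 CPM in muscle and 3837 CPM in I. DESeq2 called ACTB (adjusted p 0.00968), as did, both without the animal in the model, the likelihood ratio test (FDR 0.00516) and the fit with the ninth subcutaneous library (FDR 0.00891). The fibroblast growth factor FGF7 (FDR 0.0608) and the lipid transporter MFSD2A (FDR 0.0348) had log2 fold changes of 0.79 and 1.02 and were not called.

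Genes far more abundant in muscle than in S and omental fat were summed in each library. A gene counted as muscle-restricted when its mean in muscle was at least 50 CPM and at least 100-fold above both S and omental fat. The 159 such genes summed to 2346 CPM (28300) to 17530 CPM (28271) in the I libraries, with a median of 10690, and to 331.5 to 599.6 CPM in the S libraries. In muscle the sum was 398100 to 792500 CPM. No I sum lay within the range of the S sums, but low S sums were built into the choice of genes. After the count filter, 92 of the 159 remained, and 91 of these were called higher in I, as were 15% of all genes tested. The genes were chosen for low levels in S and could pass the filter mainly through I, so this count was largely fixed beforehand. The gap between the I and S sums was partly fixed in the same way, and nothing is read from either.

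**Figure D4:**
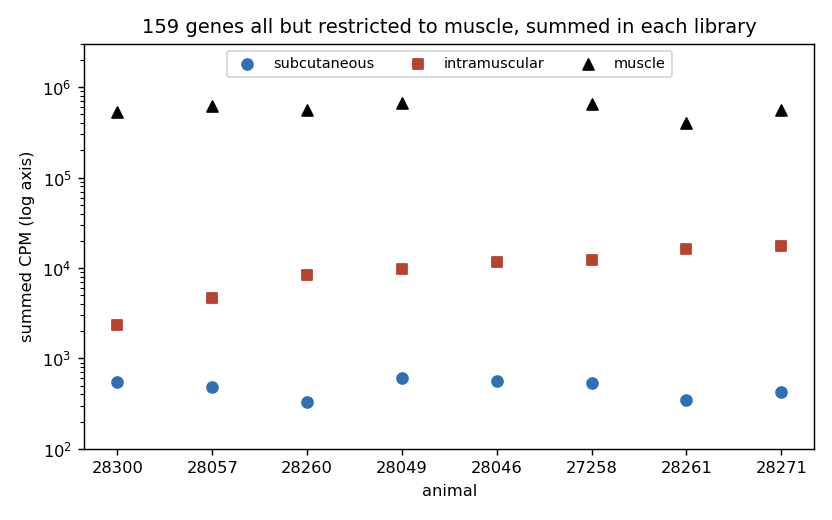
Summed CPM (log axis) of the 159 muscle-restricted genes in the S, I and muscle libraries of each animal, ordered by the I value; no muscle library was used for 28046. The I sums lie between 2346 and 17530 CPM, above the S sums and below the muscle sums in every animal shown. The genes were chosen for low levels in S, and the muscle library of 28057 went against its sex label.

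The muscle libraries were also set beside the DEGs, on a scale common to all 34 libraries and sharing the S libraries with the comparison. Of the DEGs higher in I, 683 (35.1%) had a muscle mean that exceeded the S mean by 2-fold or more, compared with 6.45% of those higher in S and 19.6% of all genes tested. Among the 132 DEGs at least 16-fold higher in I the share was 80.3%. Conversely, 47.4% of the DEGs higher in I were at least 2-fold lower in muscle than in I, compared with 29.4% of those higher in S and 26.4% of all genes tested. This ratio shares the I libraries with the calls. The muscle library of 28057 went against its sex label, and the 35.1% was the same without it. The part that muscle RNA played in the comparison was not tested. A fit that left out the 2357 tested genes whose muscle mean exceeded both omental fat and S by 2-fold gave 2798 DEGs among 10634 genes, 1377 higher in I and 1421 higher in S.

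The genes at the ends of the fold change distribution had no symbols, and 4 are given by identifier. ENSBTAG00000046177 had at most 2 counts in any S library and 2.19 to 139 CPM in I (median 38.5). ENSBTAG00000046725 ranged from 20.5 to 666 CPM in I and from 0 to 2.48 CPM in S. Their means in muscle were 1790 and 10560 CPM on the scale of all 34 libraries.

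The genes with the largest differences toward S were nearly absent from muscle, at means of 0.883 and 0.147 CPM. In omental fat their means were 546.6 and 121.7 CPM on the same scale, so neither was particular to S. ENSBTAG00000007273 ranged from 182 to 2210 CPM in S (median 1260) and from 4.8 to 58.4 CPM in I (median 22.3), with a log2 fold change of -5.34 ± 0.34 (SE, n = 8, FDR 3.05e-06). ENSBTAG00000048135 ranged from 2.05 to 267 CPM in S (median 25.5) and from 0 to 6.91 CPM in I (median 0.364). Its depots overlapped because the highest I library, that of 28046, lay above the lowest S library. No gene had at least 10 counts in all 8 libraries of a depot and 0 in all 8 of the other. With at most 3 counts in every S library, 10 genes had at least 10 in all 8 I libraries, and none showed the reverse.

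The I library of 28271 differed from the other I libraries in many genes at once. Depots were separated on the first principal component (50.7% of variance), and on the second (19.4%) this library scored 105 while the other I libraries scored -16.8 to -0.51. Its correlation of log2 CPM with the other I libraries was 0.837 to 0.868, whereas those libraries correlated with each other at 0.937 to 0.97. It was more than 2-fold above every other I library at 324 genes and more than 2-fold below every one of them at 1519 genes. No other animal exceeded 119 and 44 genes.

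**Figure D5:**
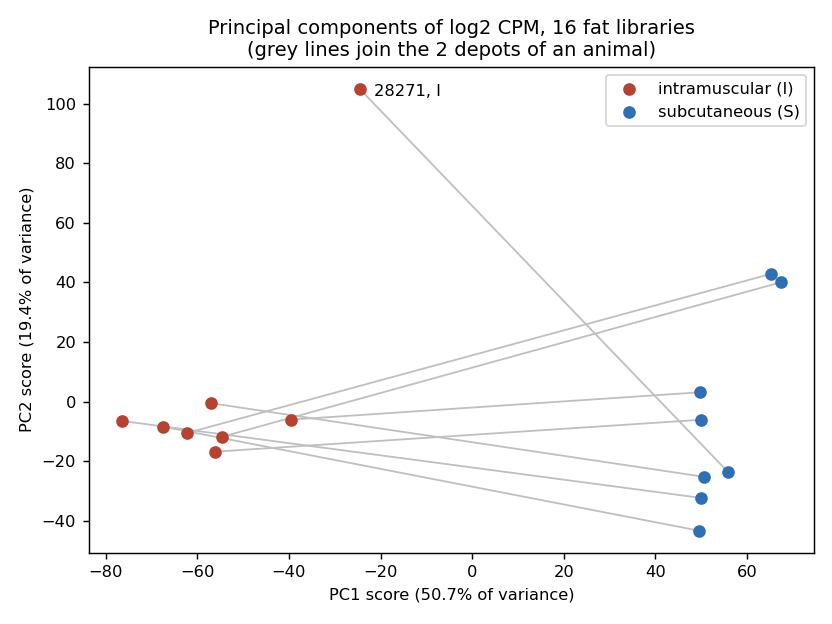
First and second principal component scores of the 16 fat libraries, from log2 CPM, with I in red, S in blue and a grey line joining the depots of each animal. I lies left of S on the first component, and the I library of 28271 stands apart on the second, at 105 against -16.8 to -0.51 for the other I libraries.

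The depth of this library was not low, at 6505720 counts on genes, but 15.4% of its reads were counted as not unique, the highest of the 16 libraries. The S library of the same animal was within the range of its group, with 4 genes above and 15 genes below all other S libraries by more than 2-fold. The paired differences of 28271 correlated with those of the other animals at 0.143 to 0.649 (median 0.392), while the medians of the other animals were 0.664 to 0.761. These correlations are across genes, which are not independent replicates.

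Without 28271, 4782 of 13006 genes tested were DEGs (36.8%), with 2484 higher in I and 2298 higher in S. Of the 3573 DEGs of the 8 animals, 3471 were called again in the same direction and 102 were not. A further 1311 genes were called only without this animal, 616 higher in I and 695 higher in S. At 1486 DEGs of the other 7 animals, 28271 went the opposite way, by at least 2-fold at 314, of which 270 were higher in I in the others.

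Among the genes with symbols, the largest departures of 28271 from the others were in IGF2BP2, MMP9, STRA6, SLPI and TBX15. On the log2(CPM + 0.5) scale, the difference of I over S was 0.94 for IGF2BP2 in 28271 against a median of 3.85 in the others. For MMP9 it was 1.07 against -1.24. This lay inside the range of the others, since 28049 had 5.42 CPM in I and 0 in S. The transcript of the secreted protease inhibitor SLPI stood at -1.73 against 0.32, STRA6 at -0.69 against 1.44, and TBX15 at -1.85 against 0.14. IGF2BP2, SLPI and STRA6 were below the count filter, and their departures rest on few reads. In I and S of 28271 they had 5 and 1, 1 and 9, and 1 and 3 counts. All but MMP9 departed downward. Spread within I also rested on this library. The median SD of log2 CPM over animals was 0.42 in I and 0.36 in S, and 0.31 and 0.36 without it.

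The depot differences were also examined under the 3 sex labels, which are those of the sample records; the methods of the study call the animals steers, and the difference was not settled here. At the DEGs higher in I, the median of the mean paired log2 difference was 1.28 in the 3 females, 1.32 in the 3 castrated males and 1.26 in the 2 males. At those higher in S the medians were -0.92, -0.97 and -0.90. The DEGs were called from these same animals, so similar medians are partly fixed by the calling. In a test of the sex label by depot interaction with edgeR's quasi-likelihood test, no gene passed and the smallest FDR was 0.481. With 2 or 3 animals a label, the absence of calls does not show that the labels are alike. At an unadjusted p below 0.05 there were 1240 genes (9.55%), and this count moved with single animals, to 620 (4.77%) without 28271, 694 (5.34%) without 27258 and 1850 (14.3%) without 28057. The likelihood ratio test called 17 genes.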

How the data were processed

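The deposited tables held raw counts of reads per gene, 1 table a library. Per the labels and methods, the authors sequenced paired ends on an Illumina HiSeq, aligned the reads to the bosTau6 cattle genome with TopHat2 (2.0.2) and counted them over Ensembl genes with HTSeq (0.5.3p3); whether strand was used was not stated. Rows that name no gene (no feature, not unique, ambiguous) were left out; reads with no feature were 54.5% to 62.8% in the 16 libraries.

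Counts were filtered with filterByExpr (minimum count 10, by depot), scaled by TMM and tested with edgeR 4.0.16 (glmQLFit, glmQLFTest; animal and depot as terms; Benjamini-Hochberg FDR under 0.01) in R 4.3.3; alternatives used limma 3.58.1 and DESeq2 1.42.0. Same-numbered libraries come from the same animal by the labels. Deviations of the depots of an animal from their group means correlated at -0.306 to 0.448, and at 0.171 to 0.319 without 28271. With 28271 included, the correlation was no higher than the median with other animals for 27258, 28046, 28049 and 28271. These values therefore do not check the pairing. On simulated counts, 97 of 97 4-fold and 61 of 103 2-fold changes were recovered. Far fewer of the 12991 genes were changed there than were called here. The changed genes left out the lowest levels, and no simulated library stood apart. The recovered shares therefore do not give the power of the comparison. Ratios within animals used CPM + 0.5. Intervals cover the spread between animals only.

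Genes were named by a rule (largest DEGs with a symbol, the qRT-PCR genes, those where 28271 departs most); symbols came from the study's primer list because none of the identifiers matched the RefSeq gene table, so pathway and cell type lists were not applied. The comparison, the genes and the lists were chosen with earlier results of these data known.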

Additional observations from a re-analysis of the deposited data

Results flagged for a closer look

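Each of 70 groups of 8 values was examined for a single value far from the rest, by the gap to its neighbour over the range (Dixon test, 95% limit); chance alone gives about 1 in 20 such groups, and 7 were found. Of these, 4 were values of animal 28271, whose intramuscular library was already known to lie far from its group, so they are no independent support. Its intramuscular library scored 105 on the second principal component, the share of the other animals' DEGs that went the same way in it was 68.7%, its TBX15 level in I was 3.71 on the log2(CPM + 0.5) scale where the others were 5.15 to 5.86, and its TBX15 difference of I over S was -1.85 where the others were -0.42 to 0.63.

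Another 2 came from 28300: DGAT2 in S stood at 10.8 (others 11.7 to 12.3) and EEF1A2 in I at 4.5 (others 6.41 to 8.01), on the same log2 scale. In 28049 the CD163 difference of I over S was -0.95 (others -2.82 to -2.07).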

How the results depend on the processing

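Every alternative kept the sign of all 3573 DEGs wherever they were tested. Without the replicate block (the animal term), 3873 genes were DEGs, of which 3320 were shared with the paired fit; of the tested genes with symbols, LHX8 alone lost its call. Counts of DEGs moved by more than 1.5 times in these cases: without 28261 and without 28260 the DEGs higher in S fell to 1033 and 1080; without scaling factors 2646 DEGs were higher in S; against a 2-fold null (glmTreat) 677 DEGs were left, 557 higher in I and 120 higher in S, by construction a stricter test; at an FDR under 0.05 there were 5538, of which 2749 were higher in S; the likelihood ratio test called 17 genes for sex label by depot, for which the cause was not tested, and the genes at an unadjusted p below 0.05 went from 1240 to 620 without 28271 and to 694 without 27258. Leaving out 1 animal at a time gave 2533 to 4782 DEGs, 1483 to 2484 higher in I and 1033 to 2298 higher in S. DESeq2 gave 4691, limma-voom 3645 and RLE factors 3577. Of 430 values of tested genes with symbols under the alternatives, 409 kept their direction and side of the threshold. Counts limit the low genes: 10 of 31 genes with symbols fell below the filter. Alternatives for the gene lists were not run, since the lists could not be applied.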

Other observations

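In a check of the labels, 5 genes were off (below 0.5 on the log2(CPM + 1) scale) in every fat library of the females and on (above 1.5) in every fat library of the other animals. The muscle library of 28057, labelled female, had a mean of 4.57 for these genes, against 0.07 in the muscle library of the female 28049 and at least 4.07 in those of the other animals. Without this library, chosen after seeing the data, 35.1% of the DEGs higher in I had a muscle mean 2-fold or more above the S mean, as with it. Without the muscle library of 28261, which had the lowest muscle gene sum, the share was 34%, and that of the DEGs at least 16-fold higher in I was 75% instead of 80.3%.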
